A study of Mus musculus with 29 samples.

Results

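The 7 genes described here, Mrc1, Pf4, Cd163, Lyve1, F13a1, Ms4a7 and Cbr2, are markers of border-associated macrophages, the macrophages of the meninges, the perivascular spaces and the choroid plexus. They were chosen by name from 22327 gene symbols in a count table of ribosome-bound RNA from mouse cortex, and all 7 passed the low-count filter that left 16074 genes to test. The rule names the genes and sets no threshold on a measured value, although the 7 were chosen with earlier results of these data known.

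Border macrophages and microglia are both tissue-resident macrophages that depend on the receptor CSF1R and express the chemokine receptor gene Cx3cr1. Border macrophages line vessels and the brain surface, where they take up material from blood and cerebrospinal fluid, while microglia lie in the parenchyma. A Cre recombinase driven by Cx3cr1 can therefore switch on a ribosomal tag in both cell types, and a pull-down of tagged ribosomes labelled as microglial can also hold transcripts of border macrophages.

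The 29 libraries came from cortex at 6 months of age, were labelled as microglia and fell into 7 groups. All 7 groups carried Cx3cr1CreErt2/+ and received 6 doses of 100 mg/kg tamoxifen at 4 to 6 weeks of age, which switched on the eGFP-L10a tag (a green fluorescent protein fused to a ribosomal protein). The 5xFAD iPKR group (n = 4) carried the 5xFAD amyloid transgenes and Eef1a1LSL.NS3.eGFPL10a.iPKR/+, an allele that joins the tag to NS3 and an inducible form of PKR, a kinase of the translation factor eIF2α. The iPKR ASV group (n = 5) and the iPKR vehicle group (n = 4) carried the same allele without 5xFAD. The 5xFAD Eif2A group (n = 3) and the Eif2A group (n = 4) carried Eif2s1A/A, Tg(Eif2s1) and Eef1a1LSL.eGFPL10a/+, with and without 5xFAD. The tag is given in the sample labels of both groups and is missing from their genotypes in the overall design text. The 5xFAD TRAP group (n = 4) and the TRAP group (n = 5) carried Eef1a1LSL.eGFPL10a/+, with and without 5xFAD. VEGF at 1 µg/kg followed by 5 mg/kg ASV was given for 4 weeks to the 5xFAD iPKR, iPKR ASV and 5xFAD TRAP groups, from 5 months of age in both 5xFAD groups and from 4 to 5 months in iPKR ASV. The iPKR vehicle group received VEGF with DMSO and PEG300, and the other 3 groups received tamoxifen alone. The groups iPKR vehicle and TRAP, 5xFAD TRAP and TRAP, or 5xFAD Eif2A and 5xFAD TRAP, thus differ in treatment as well as genotype, and these cannot be told apart. The design text counts as many mice as there are libraries. Tamoxifen-induced Cre from the Cx3cr1 locus marks whichever cells expressed Cx3cr1 at the time, and the labels give no sort or gate that would take border macrophages away.

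The libraries held 1.662 to 32 M counts each (median 6.049 M). The labelled cell type was visible in the groups without iPKR, where 16 microglial genes (among them Csf1r, Cx3cr1 and Tmem119) took 7.14% to 8.6% of counts on average. In the iPKR groups these genes took 1.47% of counts in 5xFAD iPKR, 0.711% in iPKR ASV and 0.586% in iPKR vehicle, while 12 neuronal genes took 1.97%, 1.34% and 0.915%, against 0.0974% to 0.233% in the groups without iPKR. In TRAP replicate 2 Cx3cr1 was at 17.0 CPM (counts scaled to the TMM-adjusted library size), against 616 to 720 CPM in the other TRAP libraries, while Csf1r was at 2164 CPM, within the 2030 to 2392 CPM of the others. In 8 of the 29 libraries the counts of 4 Y-linked genes went against the labelled sex.

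The promoters of Mrc1 and Pf4 are shown because these genes were lower in both comparisons of an iPKR group with its tag-only counterpart. Each is the 250 bases before the start of the gene in RefSeq (GRCm38.p6), 5′ to 3′ on the plus strand, which carries both genes. Capitals mark the letters GAGGAA or their reverse complement TTCCTC, a core that PU.1, the transcription factor of macrophages, is known to bind. The Mrc1 window is chr2:14229164-14229413 and the Pf4 window is chr5:90772185-90772434.
Mrc1: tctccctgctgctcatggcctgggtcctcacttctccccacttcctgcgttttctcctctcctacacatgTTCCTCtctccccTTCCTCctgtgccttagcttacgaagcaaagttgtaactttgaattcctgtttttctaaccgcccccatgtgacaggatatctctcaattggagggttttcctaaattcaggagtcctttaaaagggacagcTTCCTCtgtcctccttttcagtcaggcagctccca
Pf4: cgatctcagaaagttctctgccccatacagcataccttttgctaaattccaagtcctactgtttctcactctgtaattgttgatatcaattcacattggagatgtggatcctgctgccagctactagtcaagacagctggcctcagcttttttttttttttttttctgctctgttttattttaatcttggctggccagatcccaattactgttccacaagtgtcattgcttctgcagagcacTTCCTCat
The Mrc1 window held 3 matches, which begin 180, 167 and 35 bases before the start, and the Pf4 window held 1, which begins 8 bases before it. RefSeq gave 8 such windows for 6 of the members, with a pair each for F13a1 and Ms4a7. A match was in 4 of the 8 windows, 1 each of Mrc1, Pf4, F13a1 and Cbr2, against 23.3% of 32851 promoter windows of the same length. A half-site of MAF factors, TGCTGA or its reverse complement TCAGCA, was in 0 of the 8 and in 16.1% of all windows. TGCTGA and GAGGAA can share the letters GA where they adjoin.

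In mm10 (GENCODE M21) Mrc1, which encodes the mannose receptor CD206, lies at chr2:14229392-14332057 on the plus strand and contains the miRNA gene Mir511. Cd163, the scavenger receptor for haemoglobin and haptoglobin, lies at chr6:124304656-124330527 on the plus strand. Lyve1, a hyaluronan receptor that is also found on lymphatic endothelium, lies at chr7:110850607-110863239 on the minus strand. Pf4, a chemokine also known as CXCL4 and abundant in platelets, lies at chr5:90772435-90773383 on the plus strand. F13a1, the A subunit of clotting factor XIII, lies at chr13:36867178-37050244 on the minus strand and overlaps Gm49144 and Gm30489. Ms4a7, a membrane protein of the MS4A family, lies at chr19:11321039-11336146 on the minus strand. Cbr2, a carbonyl reductase, lies at chr11:120729489-120732114 on the minus strand. The strandedness of the counting is not given in the sources used here, so reads of F13a1 and of the genes that overlap it may not be separable.

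All 7 genes were detected in every one of the 16 libraries without iPKR. Raw counts there ran from 12 (Lyve1) to 1571 (Pf4). Scaled by exon length, Pf4 was the most abundant member in the TRAP group, at 105 ± 50.6 CPM per kb (SD, n = 5). Cbr2 followed at 45.9 ± 23.1 CPM per kb, and F13a1, Lyve1, Ms4a7, Mrc1 and Cd163 lay lower, between 9.92 ± 4.53 and 3.75 ± 2.04 CPM per kb. From F13a1 to Cd163, each gap between neighbours in this order was smaller than the larger SD of the pair. Pf4 and Cbr2 held the first and second place by length-scaled level in all 7 groups.

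Summed over the 7 genes, the level was 73.0 ± 62.9 CPM in 5xFAD iPKR (n = 4), 36.9 ± 19.2 in iPKR ASV (n = 5) and 26.7 ± 4.95 in iPKR vehicle (n = 4). It was 169.7 ± 58.4 CPM in 5xFAD Eif2A (n = 3), 209.6 ± 59.2 in Eif2A (n = 4), 168.2 ± 12.7 in 5xFAD TRAP (n = 4) and 325 ± 149 in TRAP (n = 5; errors are SD). The iPKR groups were the lowest 3 of the 7. The TRAP group was both the highest and, outside the iPKR groups, the most variable, with 100.7 CPM in replicate 2 and 246 to 456 CPM in the other 4 libraries. In bulk RNA of this kind, fewer tagged border macrophages, less RNA from each and a larger share of RNA from other cells cannot be told apart.

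**Figure D1:**
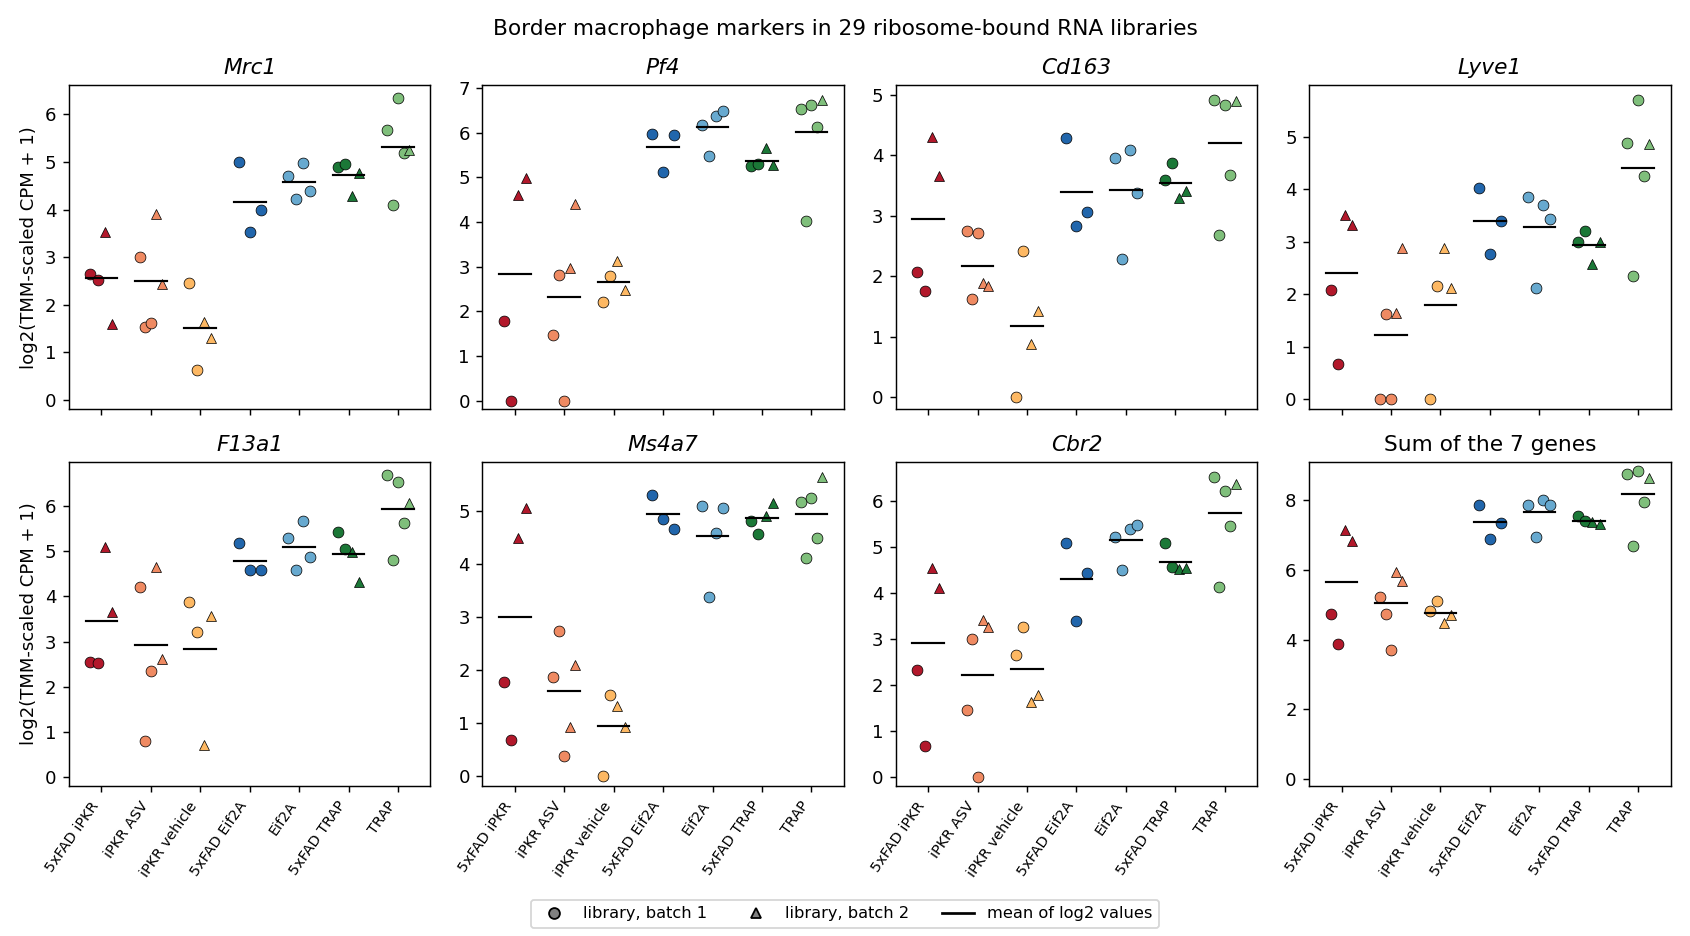
Level of each of the 7 genes and of their sum (vertical axis, log2 of TMM-scaled CPM + 1) in the 29 libraries, by group along the horizontal axis. Each point is 1 library (circles batch 1, triangles batch 2) and each bar is the mean of the log2 values; the means of the 3 iPKR groups lie below those of the 4 groups without iPKR in every panel, and TRAP replicate 2 is the lowest TRAP library in every panel.

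Mice with the iPKR construct that received no ASV were first set against the TRAP group. Mrc1, the mannose receptor gene, had 4.46, 0.56, 2.10 and 1.45 CPM in the iPKR vehicle libraries, against 49.6, 16.2, 79.6, 35.5 and 36.9 CPM in the TRAP libraries. Ms4a7 had 0, 1.89, 1.47 and 0.89 CPM in iPKR vehicle, against 35.0, 16.3, 36.8, 21.5 and 48.8 CPM in TRAP. Pf4 had 3.63, 5.89, 7.78 and 4.58 CPM in iPKR vehicle, against 91.4, 15.2, 97.9, 68.7 and 105.4 CPM in TRAP. For these 3 genes every iPKR vehicle library lay below every TRAP library, including the low replicate 2.

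The log2 fold change was -4.63 ± 0.69 for Mrc1 (SE; adjusted p = 2.58e-06, edgeR's quasi-likelihood test), and it was -4.64 ± 0.75 for Ms4a7 and -3.99 ± 0.70 for Pf4. The scavenger and hyaluronan receptors fell as well, Cd163 by 3.16 ± 0.70 and Lyve1 by 3.12 ± 0.82 on the log2 scale (Lyve1 adjusted p = 0.00213). F13a1 fell by 3.06 ± 0.71 and Cbr2 by 3.61 ± 0.71. All 7 genes were therefore lower in iPKR vehicle at an adjusted p under 0.05, where 25.4% of the 16074 tested genes were lower. The ranges of the groups did not overlap for 6 of the 7, where that held in the lower direction for 23.8% of tested genes. The exception was Lyve1, with 0, 3.47, 6.31 and 3.35 CPM in iPKR vehicle against 28.3, 4.09, 51.0, 18.0 and 28.1 CPM in TRAP, so that TRAP replicate 2 sat inside the iPKR vehicle range.

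The zeros in this comparison were in iPKR vehicle replicate 1, where 3 counts would correspond to 0.84 CPM, so a level up to that value was not detectable for Cd163, Lyve1 and Ms4a7. Over all 29 libraries there were 8 zeros, in 4 libraries and 0 of them outside the iPKR groups, with such limits between 0.84 and 1.78 CPM.

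Most other genes on the border macrophage list were lower as well. Of 24 further markers 23 were tested, and 17 were called lower and 0 higher in iPKR vehicle than in TRAP. Of all tested genes, 25.4% were called lower. The median log2 fold change of the 23 was -3.84. Clec10a (-2.60 ± 1.13) and Folr2 (-0.71 ± 1.05), at 5.97 and 1.99 CPM in TRAP, were among those not called. The 24 further markers together took 0.2008% of counts on average in TRAP, against 0.03% for the members. In TRAP replicate 2 the members took 0.009307% of counts, the lowest share in that group. The further markers took 0.192% there, within their TRAP range of 0.1892% to 0.2211%. The part of microglia in the levels of the further markers was not tested. The called genes named next are those with the smallest p. Blnk, a B-cell linker protein also made by macrophages, had 22.9 ± 5.63 CPM in iPKR vehicle and 363 ± 49.6 CPM in TRAP (log2 fold change -4.06 ± 0.44). Stab1, the scavenger receptor stabilin-1, had 10.8 ± 2.74 CPM in iPKR vehicle and 120.3 ± 36.0 CPM in TRAP (-3.50 ± 0.39). Ms4a6b and Ms4a6d, relatives of Ms4a7 in the same gene family, fell by 3.95 ± 0.44 and 3.84 ± 0.48 on the log2 scale; reads shared with close relatives in that family could be split by the counting, so their values are uncertain.

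Of the 16 microglial genes, 16 were lower in iPKR vehicle than in TRAP, where 25.4% of tested genes were lower. The median log2 fold change of the microglial genes was -4.37, against -3.61 for the 7 border macrophage markers and 0.17 for all tested genes. Csf1r, the receptor that both cell types need, had 145 ± 35.2 CPM in iPKR vehicle and 2250 ± 149.6 CPM in TRAP (log2 fold change -3.93 ± 0.29). Per library the microglial genes took 0.315% to 0.922% of counts in iPKR vehicle and 5.86% to 9.33% in TRAP, and the 12 neuronal genes, with 0 of them at 0 in any of these libraries, took 0.843% to 0.969% in iPKR vehicle and 0.1145% to 0.163% in TRAP. Counted per 1000 counts of the microglial genes, the 7 markers stood at 6.54 ± 3.25 in iPKR vehicle and 3.95 ± 1.81 in TRAP (SD, n = 4 and n = 5). When libraries were scaled to the microglial genes in place of TMM factors, 0 of the 7 were called, where 92% of tested genes were called, and the fold changes of 6 of 7 turned positive, from 0.18 for Mrc1 to 1.59 for F13a1, with Ms4a7 at -0.66. That scaling moved the median of all tested genes to 4.72 on the log2 scale, above the values of all 7 members. On TMM-scaled totals the 7 genes were thus lower in iPKR vehicle, and on a scale of microglial transcripts none was called in either direction. Genes of other brain cells were higher in iPKR vehicle too. The 12 neuronal genes were all called higher, as were 8 of 9 astrocyte genes (1 was lower) and 9 of 12 oligodendrocyte genes. Of all tested genes, 28.6% were called higher. The astrocyte genes took 0.133% to 0.196% of counts in iPKR vehicle and 0.0538% to 0.0707% in TRAP, and the oligodendrocyte genes took 0.126% to 0.421% in iPKR vehicle and 0.0553% to 0.0886% in TRAP. The part of RNA from these cells in the difference was not tested.

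**Figure D2:**
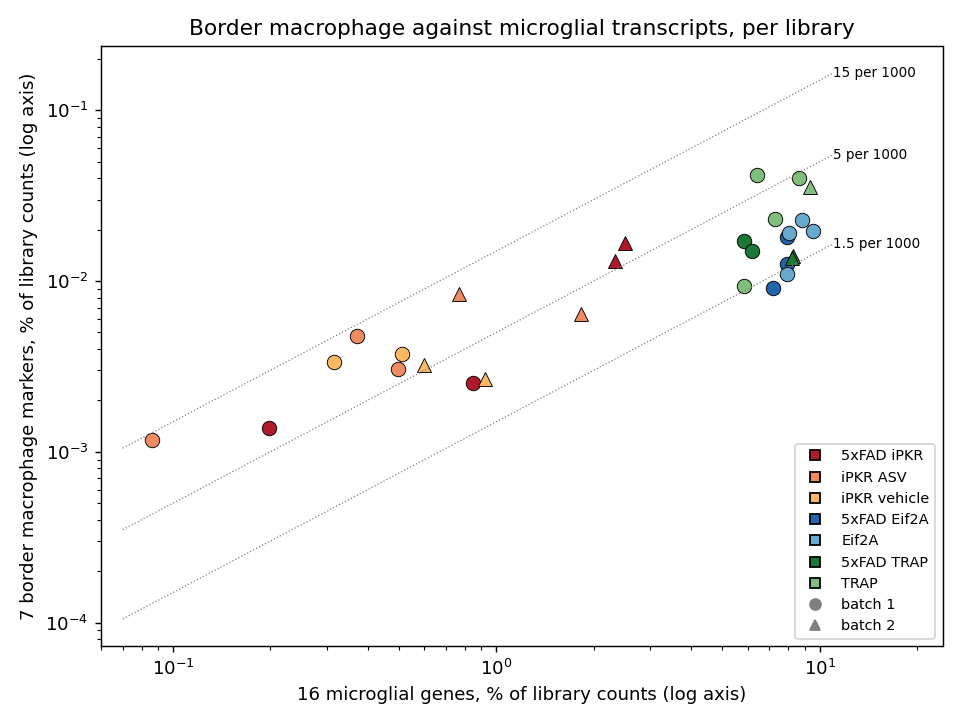
Share of library counts taken by the 7 border macrophage markers (vertical, percent, log axis) against that of 16 microglial genes (horizontal, percent, log axis) in the 29 libraries, coloured by group with the batch as the symbol. Dotted lines are constant ratios of marker to microglial counts; the iPKR libraries lie to the left of all others, and most lie below them, while 5xFAD iPKR replicates 3 and 4 (0.0166% and 0.0131%) overlap the groups without iPKR on the vertical axis, where the lowest library is at 0.00906%. The iPKR libraries lie between 2.91 and 13.6 per 1000.

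The same contrast was made on the 5xFAD background, where both groups had received VEGF and ASV. Mrc1 had 5.23, 4.74, 10.6 and 2.01 CPM in 5xFAD iPKR, against 28.7, 30.1, 18.4 and 26.2 CPM in 5xFAD TRAP. Pf4 had 2.41, 0, 23.2 and 30.9 CPM in 5xFAD iPKR, against 37.4, 38.4, 49.2 and 37.8 CPM in 5xFAD TRAP. Neither gene's ranges overlapped, although replicates 3 and 4 of 5xFAD iPKR came near to the 5xFAD TRAP libraries for Pf4. The 0 of replicate 2 allows a level of up to 1.78 CPM. Non-overlapping lower ranges were found for 22.1% of tested genes.

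Mrc1 fell by 2.2 ± 0.65 on the log2 scale (adjusted p = 0.006381, edgeR's quasi-likelihood test) and Pf4 by 2.04 ± 0.70 (adjusted p = 0.01766). These 2 of 7 genes were lower in 5xFAD iPKR where 23% of tested genes were lower, so their number was near the background share. The other members did not pass the test, with log2 fold changes of -0.57 ± 0.72 for Cd163, -0.86 ± 0.86 for Lyve1, -1.21 ± 0.74 for F13a1, -1.36 ± 0.70 for Ms4a7 and -1.38 ± 0.73 for Cbr2. The median of the 7 was -1.36, against 0.21 for all tested genes. With the replicate numbers as a block, only Mrc1 was called and Pf4 was at -1.85 (adjusted p = 0.05079, edgeR). The Pf4 call was also lost without 5xFAD iPKR replicate 1 (-1.75, adjusted p = 0.05377, edgeR) or replicate 2 (-1.61, adjusted p = 0.05703, edgeR). F13a1 passed without 5xFAD iPKR replicate 3 (-2.02, adjusted p = 0.03543, edgeR), and Ms4a7 passed without replicate 4 (-2.04, adjusted p = 0.02357, edgeR).

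The 4 libraries of 5xFAD iPKR fell into pairs that follow the batch. Replicates 1 and 2, of batch 1, had 25.4 and 13.6 CPM summed over the 7 genes, and replicates 3 and 4, of batch 2, had 139.8 and 113 CPM. For Ms4a7 this meant 2.41, 0.59, 21.2 and 32.1 CPM in 5xFAD iPKR, against 27.0, 22.5, 29.01 and 34.6 CPM in 5xFAD TRAP. Mrc1 did not follow the split, with the highest and the lowest value both in batch 2. Other measures split the same way in 5xFAD iPKR. The 16 microglial genes took 0.851% and 0.199% of counts in replicates 1 and 2 and 2.51% and 2.33% in replicates 3 and 4, while the neuronal genes took 3.13% and 3.56% in replicates 1 and 2 and 0.599% and 0.575% in replicates 3 and 4. The astrocyte genes took 0.365% and 0.529% of counts in replicates 1 and 2 and 0.147% and 0.162% in replicates 3 and 4, against 0.0434% to 0.0553% in 5xFAD TRAP. Library totals were 2.489 and 1.662 M counts in replicates 1 and 2, and 8.198 and 12.5 M in replicates 3 and 4. The Y-linked counts of replicates 1 and 2 went against their labelled sex. The part of each of these in the result was not tested.

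Within batch 1, 5 of the 7 genes were lower in 5xFAD iPKR than in 5xFAD TRAP, where 24.2% of 15152 tested genes were lower. Their log2 fold changes were -2.85 for Mrc1, -4.95 for Pf4, -3.06 for F13a1, -4.25 for Ms4a7 and -3.73 for Cbr2. Within batch 2, 0 of the 7 passed the test, where 23.4% of 18751 tested genes passed in either direction and 10.3% were lower. Mrc1 was at -1.41 and Pf4 at -0.95, and Cd163 and Lyve1 were above 0, at 0.56 and 0.62. Each batch held 2 libraries of each group.

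Among the further border macrophage markers 10 of 23 were lower and 0 higher in 5xFAD iPKR than in 5xFAD TRAP, with a median log2 fold change of -1.55. Of all tested genes, 23% were lower and 25% higher. Ms4a6b (-2.71 ± 0.44), Stab1 (-2.34 ± 0.39), Blnk (-2.46 ± 0.44) and Ms4a6d (-2.26 ± 0.47) were again among them. The microglial genes were lower in 16 of 16 cases with a median of -2.87, and Csf1r fell by 2.25 ± 0.28 on the log2 scale. Per 1000 microglial counts the 7 markers stood at 5.55 ± 1.81 in 5xFAD iPKR and 2.18 ± 0.618 in 5xFAD TRAP (SD, n = 4 each). Scaled to the microglial genes, which moved the median of all tested genes to 3.42, all 7 fold changes turned positive and stayed below that median. Cd163 (2.17, adjusted p = 0.02581, edgeR) and Lyve1 (2.01, adjusted p = 0.04151, edgeR) were then called higher in 5xFAD iPKR, 2 of 7 members where 84.1% of tested genes were called higher.

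**Figure D3:**
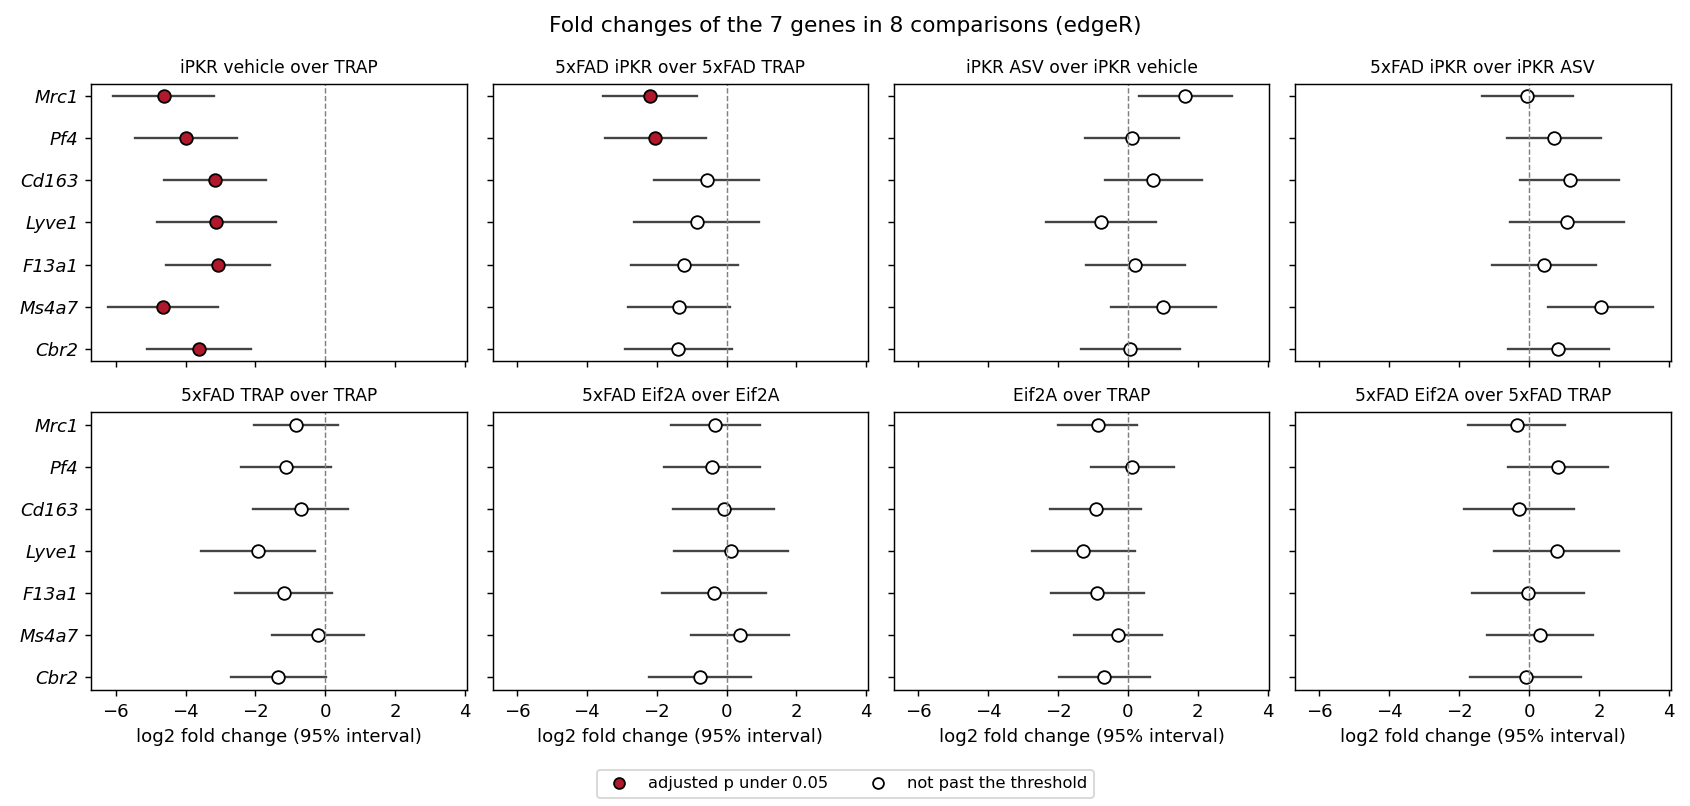
Fold change of each of the 7 genes (log2, horizontal axis, with a 95% interval derived from the edgeR F statistic) in 8 comparisons, each panel giving the first-named group over the second. Filled points passed an adjusted p under 0.05: all 7 in iPKR vehicle over TRAP, Mrc1 and Pf4 in 5xFAD iPKR over 5xFAD TRAP, and 0 in the other 6 panels.

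Within the iPKR construct, ASV was compared with its vehicle. None of the 7 genes passed the test between iPKR ASV and iPKR vehicle, where 0.423% of tested genes did, and 1 of them, Mrc1, had an unadjusted p under 0.05, as had 16.4% of tested genes. Mrc1 had 7.01, 1.89, 2.06, 13.9 and 4.39 CPM in iPKR ASV, against 4.46, 0.56, 2.10 and 1.45 CPM in iPKR vehicle. Its log2 fold change was 1.65 ± 0.64 (adjusted p = 0.1959, edgeR), and the ranges of the groups overlapped. The other 6 lay between -0.76 and 1.02 on the log2 scale.

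Adding 5xFAD to the iPKR ASV genotype left 0 of the 7 past the threshold, where 1.72% of tested genes passed. Ms4a7 was nearest, with 2.41, 0.59, 21.2 and 32.1 CPM in 5xFAD iPKR against 2.63, 5.66, 0.29, 0.90 and 3.23 CPM in iPKR ASV. The 2 libraries of batch 2 were high and those of batch 1 were inside the iPKR ASV range. The log2 fold change was 2.06 ± 0.72 (adjusted p = 0.166, edgeR). Within batch 2 it was 3.60 and passed the test, and within batch 1 it was -1.11 and did not. Leaving out iPKR ASV replicate 2 (2.78), 5xFAD iPKR replicate 2 (2.55) or the 3 libraries richest in neuronal transcripts (2.86) also brought it past the threshold. The median of the 7 was 0.83, but -0.45 when scaled to the microglial genes (which moved the median of all tested genes to -1.19) and -0.55 within batch 1. On TMM-scaled totals the median of the 16 microglial genes was 1.19, of which 3 were higher in 5xFAD iPKR.

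In mice with the tag alone, the fold changes of all 7 genes between 5xFAD TRAP and TRAP were below 0, and none passed the test. Lyve1, the hyaluronan receptor, had 7.01, 8.22, 4.92 and 7.01 CPM in 5xFAD TRAP, against 28.3, 4.09, 51.0, 18.0 and 28.1 CPM in TRAP. Every 5xFAD TRAP library lay below 4 of the 5 TRAP libraries and above TRAP replicate 2. The log2 fold change of Lyve1 was -1.94 ± 0.78 with a 95% interval from -3.57 to -0.30 (adjusted p = 0.3679, edgeR's quasi-likelihood test). Cbr2 had 32.7, 22.5, 21.8 and 22.4 CPM in 5xFAD TRAP, against 90.8, 16.5, 72.6, 42.8 and 81.5 CPM in TRAP, a log2 fold change of -1.34 ± 0.66.

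The other 5 fold changes between 5xFAD TRAP and TRAP were -1.19 ± 0.67 for F13a1, -1.12 ± 0.62 for Pf4, -0.83 ± 0.57 for Mrc1, -0.70 ± 0.65 for Cd163 and -0.21 ± 0.63 for Ms4a7. All 7 were below 0, as were 55% of tested genes, and the members' median was -1.12 against -0.06 for all tested genes. An adjusted p under 0.05 was reached by 0 of the 7 and by 0.79% of tested genes, and an unadjusted p under 0.05 by 1 of the 7 (Lyve1) and by 10.2% of tested genes. DESeq2 also called 0 of the 7. Without TRAP replicate 2 still 0 passed, and Lyve1 was at -2.25 (adjusted p = 0.2893, edgeR). None of the 7 intervals but that of Lyve1 left out 0, and the interval of Cbr2 reached from -2.71 to 0.03. Of the further border macrophage markers 0 of 23 passed, with a median of -0.54, and of the 16 microglial genes 0 passed, with a median of -0.27.

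Eif2A mice carry Eif2s1A/A, an allele whose product cannot be phosphorylated at the stress site, together with the transgene Tg(Eif2s1). Between 5xFAD Eif2A and Eif2A, 0 of the 7 genes passed the test, where 3.1% of tested genes did. Cbr2 had 32.6, 9.47 and 20.6 CPM in 5xFAD Eif2A, against 35.8, 21.5, 40.7 and 43.5 CPM in Eif2A (log2 fold change -0.76 ± 0.70). The 7 lay between -0.76 for Cbr2 and 0.38 for Ms4a7 with a median of -0.32. Their intervals all included 0. Of the 23 further markers, 1 was higher in 5xFAD Eif2A. It was Wfdc17, a secreted protease-inhibitor-like protein of activated macrophages, with 234.7 ± 101.8 CPM in 5xFAD Eif2A and 45.1 ± 8.85 CPM in Eif2A (SD, n = 3 and n = 4). Its log2 fold change was 2.42 ± 0.66 (adjusted p = 0.03688, edgeR), and the call was lost when any 1 of the 7 libraries was left out, with an adjusted p between 0.05837 and 0.1858.

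Between Eif2A and TRAP 0 of the 7 genes passed, as did 0 of all tested genes, while an unadjusted p under 0.05 was reached by 0 of the 7 and by 912 genes (5.67%), and DESeq2 called 41 genes and 0 of the 7. Lyve1 had 13.3, 3.31, 12.01 and 9.78 CPM in Eif2A, against 28.3, 4.09, 51.0, 18.0 and 28.1 CPM in TRAP (log2 fold change -1.27 ± 0.71). Eif2A replicate 2 and TRAP replicate 2 were the lowest library of their groups for Lyve1. Between 5xFAD Eif2A and 5xFAD TRAP 0 of the 7 passed, where 0.168% of tested genes did, and the largest fold change was that of Pf4. Pf4 had 61.3, 33.9 and 60.7 CPM in 5xFAD Eif2A, against 37.4, 38.4, 49.2 and 37.8 CPM in 5xFAD TRAP (log2 fold change 0.83 ± 0.69, with overlapping ranges).

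Whether the 5xFAD effect differed between genotypes was tested as a difference of differences. For the Eif2A pair minus the TRAP pair 0 of the 7 passed, where 0.00622% of tested genes did. For the iPKR ASV pair minus the TRAP pair 0 of the 7 passed, where 0.0373% of tested genes did. Lyve1 had the largest estimate in both, 2.06 ± 1.09 in the first and 3.02 ± 1.13 in the second (adjusted p = 0.5726 in the second, edgeR). All 7 estimates were above 0 in both, where 48.2% and 45.3% of tested genes were below 0. Their medians were 0.63 and 1.86, against 0.02 and 0.07 for all tested genes. In the second, Lyve1, Ms4a7 and Cbr2 had an unadjusted p under 0.05, as had 6.74% of tested genes. In the first, the smallest unadjusted p was that of Lyve1, at 0.06902 (edgeR). The comparisons share their TRAP and 5xFAD TRAP libraries, so these estimates are not independent of each other. In the TRAP pair only 5xFAD TRAP received VEGF and ASV, whereas neither group of the Eif2A pair and both of the iPKR ASV pair did. A difference between genotypes therefore cannot be told apart from that treatment in either estimate.

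In the groups without iPKR the 7 genes also varied together between libraries of 1 group. Over the 16 libraries without iPKR, the deviations of log2 CPM from the group mean gave a Pearson correlation between 0.52 (Mrc1 with Ms4a7) and 0.93 (Cd163 with Lyve1) in the 21 pairs of members, with a median of 0.81. Without TRAP replicate 2, which was low for all 7, the 15 remaining libraries gave 0.32 to 0.90 with a median of 0.71. Over all 29 libraries the range was -0.13 to 0.91 with a median of 0.39. The libraries of a pair share depth, scaling and batch, so these values describe the libraries and carry no test.

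**Figure D4:**
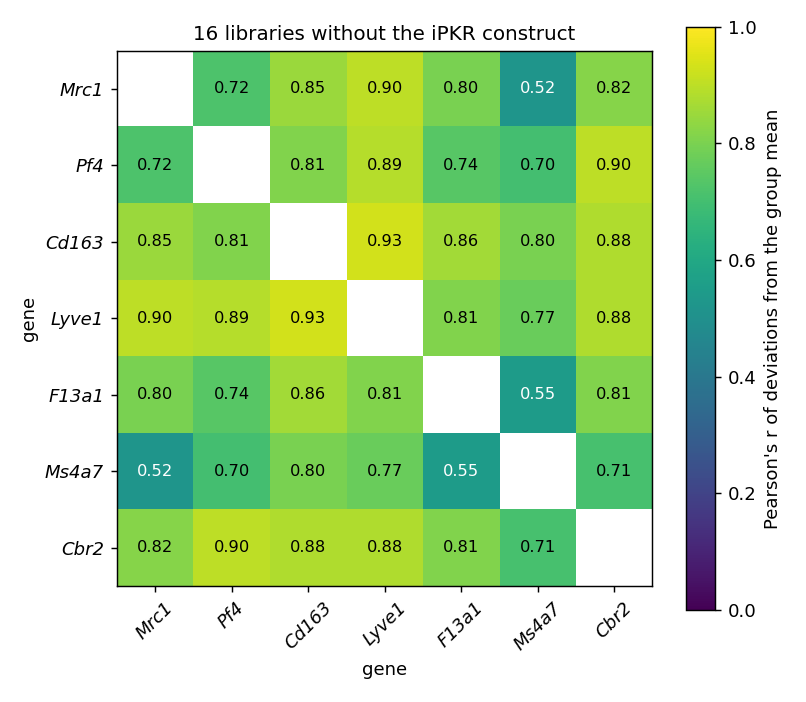
Pearson's r between each pair of the 7 genes over the 16 libraries without iPKR, computed on deviations of log2 CPM from the group mean (colour and number in each square; the diagonal is blank). The lowest value is 0.52, Ms4a7 with Mrc1, and the highest is 0.93, Cd163 with Lyve1.

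Among 12496 genes, those whose deviations followed the mean of the 7 most closely over these 16 libraries were Ptgds (r = 0.933), Tmem2 (0.909), Cd209f (0.891), Phka1 (0.875), Tpcn2 (0.869), Srl (0.864), Gemin5 (0.86) and Zc3hc1 (0.851). Cd209f, a C-type lectin, is on the list of further border macrophage markers. Ptgds encodes a prostaglandin D2 synthase, and the cells it came from were not tested. Over all 29 libraries other genes led, namely Ppp1r35 (0.877), 1190007I07Rik (0.866), Fcrls (0.865), Sft2d1 (0.862), Mrps23 (0.858), Cln3 (0.855), Agap2 (0.852) and Ninj1 (0.848). Fcrls is on the list of microglial genes.

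Some members are also made by other cells, and the defining genes of those cells were measured in the same libraries. The 7 platelet genes (without Pf4) together took 0.000878% to 0.00688% of counts per library, and up to 5 of the 7 were at 0 in a library. Their share was 0.000878% to 0.00207% in iPKR vehicle and 0.00296% to 0.00577% in TRAP. The 4 genes of lymphatic endothelium, which also expresses Lyve1, took at most 0.00362% of counts and up to 3 of them were at 0. The 6 monocyte genes took at most 0.00717% and up to 6 were at 0. Both of these highest shares were in iPKR ASV replicate 4, where the 7 border macrophage markers took 0.00842% of counts, the highest of their range in iPKR ASV (from 0.00117%). The 7 markers took 0.00268% to 0.00373% in iPKR vehicle and 0.00931% to 0.0416% in TRAP, where the lymphatic genes took at most 0.00175% in iPKR vehicle and 0.00148% in TRAP and the monocyte genes at most 0.000989% in iPKR vehicle and 0.00114% in TRAP. The part of these cells in the levels of the 7 genes was not tested.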

How the data were processed

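Ribosome-bound polyA RNA was pulled down with a GFP antibody and sequenced after library preparation with SMART-Seq mRNA LP. Per the submitters' processing notes, Trim Galore, HISAT2 2.2.1 and featureCounts 2.0.3 were used on mm10; the annotation, strandedness and handling of multi-mapped reads are not given in the sources used here. The authors deposited raw counts for 22327 symbols in 29 libraries, which were used; their RPKM table was not used. Fits were made in R 4.3.3 with edgeR 4.0.16: filterByExpr by group (minimum count 10, minimum total 15), TMM factors, 1 model of group, batch (20 libraries in batch 1, 9 in batch 2) and labelled sex over all 29 libraries (20 residual degrees of freedom), and a two-sided quasi-likelihood test with Benjamini-Hochberg adjustment over 16074 genes at a threshold of 0.05. The SE of a log2 fold change is its size divided by the square root of the F statistic of that test. Each 95% interval takes this SE and a t distribution with 20 degrees of freedom, and is approximate. CPM are TMM-scaled, and shares of counts are of unscaled totals. Limits set for a 0 take 3 counts and cover counting error only, since molecular identifiers are not mentioned.

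There were 8 pairwise comparisons and 2 differences of differences. Named beside the members were up to 4 called further border macrophage markers by smallest p, Csf1r and Cx3cr1, and the 8 genes with mean log2 CPM of at least 1 that followed the members most closely. The 7 members and all lists were chosen with earlier results of these data known. Same-numbered libraries were checked for shared deviations. In 5xFAD iPKR and 5xFAD TRAP all 4 pairs had correlations of 0.11 to 0.22, so the blocked values are given there, although only 1 of the 4 matched its own number best. In the other comparisons the correlations ran from -0.5 to 0.11 and the numbers were not taken as pairs. Among these, all 3 pairs of 5xFAD Eif2A and Eif2A matched their own number best, at 0.04 to 0.11. Alternatives were RLE factors, scaling to microglial genes, no or a stricter filter, models without sex or batch, single batches, a replicate block, only the groups compared, DESeq2 1.42.0 and leaving out libraries. No 2 libraries of a group were copies of each other. The procedure was also run on simulated counts, for 5xFAD TRAP against TRAP and iPKR vehicle against TRAP only. Those counts took the spread typical of genes at a like level in place of each gene's own. They therefore cannot show how the procedure does for the members.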

Additional observations from a re-analysis of the deposited data

Results flagged for a closer look

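Of 60 sets of values of 1 gene in 1 group that were checked for a library far from the others, 3 held one, and chance alone is expected to give about 1 in 20. Pf4 in 5xFAD TRAP replicate 3 was at 49.22 CPM, above the 37.38 to 38.35 CPM of the other 3 libraries of that group. Cbr2 in 5xFAD TRAP replicate 1 was at 32.71 CPM, above the 21.76 to 22.46 CPM of the other 3. Cx3cr1 in TRAP replicate 2 was at 16.97 CPM, below the 615.7 to 720 CPM of the other 4 TRAP libraries. All 3 libraries were kept in every value given unless stated.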

How the results depend on the processing

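The 7 lower calls in iPKR vehicle against TRAP were unchanged under every alternative run, each left-out library included, except scaling to microglial genes, which gave 0 calls and fold changes of 0.18 for Mrc1, 0.29 for Pf4, 0.97 for Cd163, 1.03 for Lyve1, 1.59 for F13a1 and 0.61 for Cbr2. Blnk (0.42), Stab1 (1.03, adjusted p = 0.01805, edgeR), Ms4a6b (0.52), Ms4a6d (0.73) and Csf1r (0.57) also turned positive there. In 5xFAD iPKR against 5xFAD TRAP that scaling gave 1.11 for Mrc1, 0.52 for Pf4, 2.17 for Cd163, 2.01 for Lyve1, 1.7 for F13a1, 1.22 for Ms4a7, 1.31 for Cbr2, 0.32 for Blnk, 0.55 for Stab1, 0.51 for Ms4a6d and 0.79 for Csf1r; it is computed from genes that were themselves lower, and the cause of the other changes was not tested.

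In 5xFAD iPKR against 5xFAD TRAP the 2 called members became 1 without batch and sex, with the replicate block, with only the groups compared, without the 3 libraries rich in neuronal transcripts and without the 8 libraries against their labelled sex. They became 5 in batch 1 alone and 0 in batch 2 alone, and 1 to 3 with single libraries left out. Cd163 turned to 0.56 in batch 2 alone, 0.34 without the 3 libraries and 0.07 without the 8, and Lyve1 to 0.62 in batch 2 alone. In 5xFAD iPKR against iPKR ASV the 0 became 1 without batch and sex, in batch 2 alone and without the 3 libraries. It became 0 to 1 with single libraries left out, and Ms4a7 was at -1.11 in batch 1 alone. Mrc1 in iPKR ASV against iPKR vehicle was at -0.03 without the 8 libraries, which leave 1 iPKR ASV library that is assumed to vary like the others. Calls that rest on this 1 library are not given. Batch 2 alone and both sets of left-out libraries were chosen after seeing the data. Batch 2 alone was not run where a group has under 2 libraries in it, as TRAP and both Eif2A groups do.

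The replicate block changed no other member's call, and Wfdc17 lost its call under it (2.36, adjusted p = 0.1058, edgeR). Over all genes the calls ranged over the alternatives from 25 to 749 in 5xFAD TRAP against TRAP (127 as reported), 40 to 1664 in 5xFAD Eif2A against Eif2A (499), 10 to 2827 in 5xFAD iPKR against iPKR ASV (277), 0 to 41 in Eif2A against TRAP (0), 0 to 1095 in 5xFAD Eif2A against 5xFAD TRAP (27), 7718 to 14792 in iPKR vehicle against TRAP (8695), 0 to 525 in iPKR ASV against iPKR vehicle (68), 4395 to 13533 in 5xFAD iPKR against 5xFAD TRAP (7704), and 0 to 83 and 0 to 281 in the Eif2A and iPKR ASV differences (1 and 6). Low counts in the iPKR libraries, with a median of 8 for Ms4a7 and 16 for Mrc1, limit what those groups can show.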
